A study of Mus musculus with 18 samples.

Results

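Hes1 and 8 further genes of the Notch pathway (Hes6, Hey1, Heyl, Notch1, Notch2, Jag1, Rbpj and Nrarp) were followed in mouse liver through every probe set that the array's annotation assigns to them, 19 of 45037. A probe set is a group of short oligonucleotides that together read 1 transcript, and each is described on its own. Of the 19, 15 passed a filter on low signal, a mean log2 value at or above the 40th percentile of all probe sets (4.98, a signal of 15.5). The other 4, of Heyl (1438886_at and 1419303_at), Notch2 (1451889_at) and Nrarp (1417986_at), had signals of 0.80 to 45.7 and are not taken further.

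The study set livers of male mice that lack Hmgn1, which encodes a nucleosome-binding protein, against wild-type livers, with and without a liver carcinogen. The 18 arrays form 6 groups of 3. Hmgn1+/+ (wild-type) and Hmgn1-/- (knockout) livers were taken without injection at 4 weeks. Both genotypes were also taken 12 weeks on, by the sample titles, after an injection at 4 weeks of age of either saline or N-nitrosodiethylamine (DEN) at 10 µg per g of body weight. Whether the 12 weeks count from birth or from the injection is not settled by the labels. Both genotypes came from crosses of heterozygotes and were then bred as separate homozygous lines, so the effect of Hmgn1 and other differences between the lines cannot be told apart. Nothing in the labels ties the 3 arrays of a group to separate animals, and a p-value here measures only how much these samples vary.

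In the Notch pathway a ligand on 1 cell, such as Jag1, binds a receptor on its neighbour, such as Notch1 or Notch2. The receptor is then cut, and its freed intracellular part joins the DNA-binding protein Rbpj and turns on target genes, among them the transcriptional repressors Hes1, Hey1 and Heyl and the feedback inhibitor Nrarp. Hes6 belongs to the Hes family but is known as an antagonist of Hes1 rather than as a typical Notch target. In liver the pathway is known for its part in the formation of bile ducts, and Hes1 is also known to respond to signals other than Notch.

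Signals are on the arrays' linear scale, in arbitrary units, and differences are in log2 of the signal plus 16. The signal of 1 probe set was not compared with that of another. The saline arrays had a narrower range than the other 12, with a highest signal of 16720 to 21752 against 46967 to 60173 and summed signals of 6 hepatocyte markers of 67073 to 85315 against 146807 to 170401. Saline treatment and whatever else sets these arrays apart cannot be told apart. Quantile-normalized values, which give all arrays 1 distribution, therefore stand beside calls of members and of pathway list genes that involve saline. They are not given for cell type markers or for further probe sets of a list gene. The Hmgn1 probe set of highest mean read 5039 to 7948 on the 9 wild-type arrays and 4838 to 6894 on the 9 knockout arrays; the sources used here do not say where its probes lie relative to the deletion, so it does not check the labels. The ratio of Gapdh probe signal at the 3' end to that at the 5' end, which is higher in shortened RNA, was 0.907 to 1.13 on the 6 DEN arrays (0.907 to 0.937 in knockout), 1.19 to 1.41 on the saline arrays and 1.13 to 2.19 at 4 weeks. It thus moved with DEN, and fits with this ratio as a covariate are given where they end a call. In bulk liver, fewer cells of a type and less RNA per cell cannot be told apart.

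Hes1, a repressor of the basic helix-loop-helix class and a standard readout of Notch signalling, was measured by 1 probe set (1418102_at). At 4 weeks its signals were 71.4, 33.1 and 61.2 in wild type and 191, 209 and 171 in knockout. With saline they were 66.0, 52.1 and 69.0 in wild type and 155, 124 and 150 in knockout. With DEN they were 73.4, 93.8 and 51.3 in wild type and 76.8, 97.6 and 46.5 in knockout. The 6 knockout arrays without DEN lay above every other array, the highest of which was a knockout liver with DEN. The 3 knockout arrays with DEN overlapped with the wild-type arrays of each condition.

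Ordered by mean signal, the groups ran from knockout at 4 weeks (190 ± 18.8, SD, n = 3) through knockout with saline (143 ± 16.6), knockout with DEN (73.6 ± 25.7), wild type with DEN (72.8 ± 21.2) and wild type with saline (62.4 ± 8.98) to wild type at 4 weeks (55.2 ± 19.8). The first 2 groups did not overlap with each other or with the rest. The last 4 overlapped, and their means differed by less than the larger of their SDs. The lowest of the 18 values, 33.1, came from the array with the highest Gapdh ratio, 2.19; without that array the 4-week difference was 1.33.

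**Figure D1:**
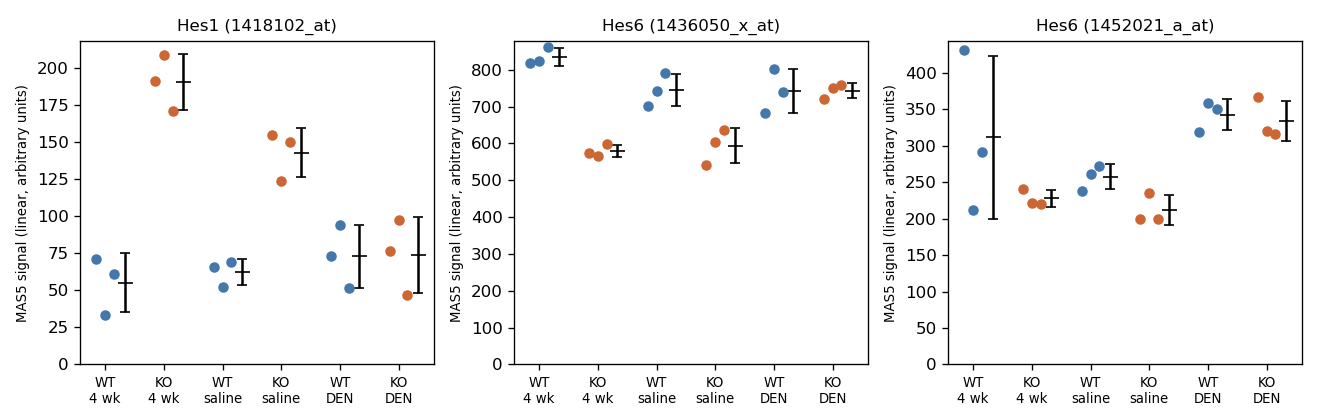
Linear MAS5 signal (vertical axis, arbitrary units, from 0) of the Hes1 probe set and the 2 Hes6 probe sets on each of 18 arrays, by group (horizontal axis); blue points are wild type, orange points knockout, and bars show the mean ± SD of 3 arrays. The 6 knockout arrays without DEN are the highest for Hes1, from 124 to 209, and in the middle panel they are the lowest for Hes6, from 542 to 636.

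The genes were taken to be selected on Hes1 values, those of the knockout and wild-type arrays at 4 weeks, so that difference is a description with no test. It was 1.57 higher in knockout (SE 0.22, a fold of 2.98). For the same reason every comparison with 4-week arrays is given for the 9 genes without a test, and tests are confined to comparisons among the 12-week groups. If 12-week values also entered the choice, the Hes1 tests among those groups are not independent of it. From 4 weeks to saline, Hes1 differed by 0.17 in wild type and by -0.38 in knockout. From 4 weeks to DEN it differed by 0.33 in wild type and by -1.24 in knockout.

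With saline, Hes1 was 1.02 higher in knockout (SE 0.22, 95% interval 0.56 to 1.48, a fold of 2.03), and the groups did not overlap. This missed the threshold of 0.05 after adjustment over the 27022 probe sets tested (limma with Benjamini-Hochberg adjustment, adjusted p = 0.245; 0.324 with quantile values). In this comparison 0.0111% of the probe sets tested were called, 3 in all, and 1426 had an unadjusted p under 0.05. A fit to the saline arrays alone gave the same difference with adjusted p = 0.0344, and weighting arrays by quality gave 1.04 with adjusted p = 0.00290, both by limma. With DEN the difference was -0.00 (SE 0.22, 95% interval -0.46 to 0.46, limma adjusted p = 0.9996), and 0.0074% of the probe sets were called.

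In knockout, Hes1 fell from saline to DEN by 0.86 on the log2 scale (SE 0.22, limma adjusted p = 0.0114, 3 of 3 DEN arrays below 3 of 3 saline arrays). With quantile values it was -0.74 (limma adjusted p = 0.0386), and with the Gapdh ratio as a covariate -1.17 (limma adjusted p = 0.00829). The call was lost without knockout DEN replicate 3 (-0.62, limma adjusted p = 0.0738) and without knockout saline replicate 1 (-0.81, limma adjusted p = 0.0514). In wild type the difference was 0.16 (SE 0.22, limma adjusted p = 0.770), and the groups overlapped. The direct test of the difference between these responses gave -1.02 (SE 0.31, 95% interval -1.68 to -0.37) and did not pass over all probe sets (limma adjusted p = 0.430), a test in which 0% of the probe sets were called and 2170 had an unadjusted p under 0.05.

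Hes6, the antagonist of Hes1 within the family, was measured by 2 probe sets. For 1436050_x_at the signals at 4 weeks were 818, 823 and 861 in wild type and 575, 566 and 599 in knockout. With saline they were 702, 742 and 790 against 542, 604 and 636, and with DEN 682, 801 and 740 against 722, 750 and 758. The knockout arrays without DEN were again a group of their own, here below the other 12 arrays, while wild type and knockout with DEN overlapped. For 1452021_a_at the signals were 432, 211 and 292 against 241, 222 and 220 at 4 weeks, 239, 261 and 273 against 200, 235 and 199 with saline, and 319, 359 and 350 against 366, 320 and 317 with DEN. In this probe set the 6 DEN arrays lay above every saline array, and the genotypes overlapped at 4 weeks, where wild type spread widely.

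At 4 weeks Hes6 differed by -0.51 (SE 0.09) in 1436050_x_at and by -0.37 (SE 0.16) in 1452021_a_at, both as descriptions. With saline the genotype differences were -0.32 (SE 0.09, limma adjusted p = 0.516) and -0.27 (SE 0.16, limma adjusted p = 0.986), without overlap in either. With DEN they were 0.01 (95% interval -0.17 to 0.19) and -0.04 (95% interval -0.37 to 0.30). Neither probe set passed in the 2 comparisons with a test.

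From saline to DEN, Hes6 rose in knockout in both probe sets. In 1436050_x_at it rose by 0.32 (SE 0.09, limma adjusted p = 0.0147; 0.34 and 0.0127 with quantile values), and in 1452021_a_at by 0.62 (SE 0.16, limma adjusted p = 0.0106; 0.69 and 0.00763 with quantile values). In wild type the values were -0.01 (limma adjusted p = 0.979) and 0.39 (limma adjusted p = 0.162), the latter without overlap. The difference of the responses was 0.33 (SE 0.12, limma adjusted p = 0.496) and 0.23 (SE 0.23, limma adjusted p = 0.843). Both knockout calls were lost with the Gapdh ratio as a covariate, at 0.29 (limma adjusted p = 0.0988) in 1436050_x_at and at 0.24 (limma adjusted p = 0.385) in 1452021_a_at. The 1436050_x_at call was also lost without knockout saline replicate 1 (0.26, limma adjusted p = 0.0966). The probes of a set named _x_at can also bind other transcripts, and the 2 Hes6 probe sets correlated over the 18 arrays at r = 0.62.

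Among the DEN and saline knockout arrays, 3 of the 15 member probe sets that passed the filter were called, Hes1 lower and Hes6 higher in 2, against 15.1% of all probe sets tested (6.42% higher and 8.65% lower). The share is near that background. With the Gapdh ratio as a covariate Hes1 alone was called. In each of the other 4 comparisons among the 12-week groups 0 of 15 were called with limma. Between DEN and saline in wild type 6.54% of all probe sets were called. At an unadjusted p under 0.05 there were 3 of 15 between genotypes with saline (5.28% of all probe sets tested), 1 between genotypes with DEN (8.97%), 2 between DEN and saline in wild type (19.5%), 7 in knockout (28.4%) and 3 in the difference of responses (8.03%).

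RefSeq promoter windows, 250 bases before to 50 bases after a start site, were at hand for 6 of the 9 genes (8 windows, build GRCm38.p6); Hes1, Hey1 and Heyl are named only. Both Hes6 windows are printed because 1 of the Hes6 probe sets had the lowest correlation with Hes1 among the members (r = -0.84 over the 18 arrays), and Hes1 is a repressor known to bind N boxes (CACNAG). They lie on the minus strand at chr1:91413989-91414288 (first) and chr1:91413173-91413472 (second), read 5′ to 3′, with N boxes on either strand in capitals.
Hes6 promoter window 1: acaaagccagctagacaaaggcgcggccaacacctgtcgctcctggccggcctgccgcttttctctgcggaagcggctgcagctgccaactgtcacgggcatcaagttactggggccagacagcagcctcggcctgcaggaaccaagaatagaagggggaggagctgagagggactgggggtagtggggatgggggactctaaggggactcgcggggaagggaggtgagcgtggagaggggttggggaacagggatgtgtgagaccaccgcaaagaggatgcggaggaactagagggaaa
Hes6 promoter window 2: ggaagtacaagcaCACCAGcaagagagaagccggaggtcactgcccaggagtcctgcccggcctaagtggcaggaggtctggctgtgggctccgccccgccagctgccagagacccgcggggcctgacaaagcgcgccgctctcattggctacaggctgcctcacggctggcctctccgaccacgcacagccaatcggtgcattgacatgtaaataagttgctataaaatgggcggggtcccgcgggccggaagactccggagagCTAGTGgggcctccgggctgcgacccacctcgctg
The second window holds 2 N boxes, CACCAG with its first base at -237 and CTAGTG, the same motif on the other strand, at 15, counted from the start site, and the first window holds 0. N boxes were found in 4 of the 8 member windows, 1 each of Hes6, Notch1, Notch2 and Nrarp, and in 42.5% of all 32851 windows, a similar share. The core of the Rbpj site, TGGGAA on either strand, was found only in the 2 windows of Rbpj itself, against 25.6% of all windows. These 2 windows overlap, and the match at -65 in the first is the same site as that at -205 in the second. CACGTG, an E box bound by Hes and Hey proteins, was found in Nrarp alone (7.15% of all windows), and CACGCG, a further site of Hes proteins, in Notch2 and Jag1 (9.27%). Motifs were searched on both strands of these 300 bases only, and Notch1 has 2 N boxes that overlap. A match is a run of letters and not a measured binding site.

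Hey1 and Heyl, the other Hes-related repressors that Notch is known to induce, were dim. Hey1 (1415999_at) read 3.25 to 38.1 over the 18 arrays, with a median of 21.0 and a mean log2 value of 5.02, just above the filter. Heyl (1419302_at) read 22.0 to 63.6, with a median of 40.8. In the comparison of genotypes with saline, where Hes1 differed by 1.02, Hey1 differed by 0.43 (95% interval -0.38 to 1.25) and Heyl by 0.22 (95% interval -0.23 to 0.68). The groups of both genes overlapped in all 3 genotype comparisons and in both DEN comparisons. At these signals the intervals are wide, and a difference of the size seen for Hes1 was inside the interval of Hey1.

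Nrarp, a direct Notch target that dampens the pathway by acting on the Rbpj complex, read 79.5, 67.9 and 69.1 in wild type and 60.3, 76.9 and 76.7 in knockout at 4 weeks (1417985_at). With saline it read 65.3, 64.6 and 71.8 against 77.6, 64.1 and 81.8, and with DEN 42.4, 49.1 and 61.3 against 40.4, 71.3 and 72.3. The genotypes overlapped in each condition. The genotype differences were -0.02 at 4 weeks, 0.12 (95% interval -0.25 to 0.49) with saline and 0.19 (95% interval -0.18 to 0.56) with DEN. The saline interval of Nrarp ends at 0.49, and that of Hes1 begins at 0.56. Between saline and DEN, Nrarp differed by -0.32 in wild type (SE 0.18, limma adjusted p = 0.336), where the groups did not overlap, and by -0.25 in knockout (limma adjusted p = 0.377).

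Rbpj, the DNA-binding protein through which all Notch receptors act, was read by 3 probe sets that did not run alike (r of 0.14 to 0.51 between them). For 1454896_at the signals at 4 weeks were 166, 162 and 161 in wild type and 208, 167 and 215 in knockout. With saline they were 232, 258 and 222 against 241, 224 and 266, and with DEN 154, 193 and 182 against 165, 193 and 226. The 6 saline arrays read 222 or more, as did 1 other array, a knockout with DEN. Knockout lay above wild type at 4 weeks (0.24, a description), and the genotypes overlapped with saline (0.03) and with DEN (0.13). From saline to DEN the difference was -0.40 in wild type (SE 0.13, limma adjusted p = 0.0622, no overlap) and -0.31 in knockout (limma adjusted p = 0.111, overlap).

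For Rbpj 1448957_at the wild-type signals were 57.2, 36.3 and 55.4 at 4 weeks, 73.7, 81.3 and 63.9 with saline and 51.0, 60.3 and 54.2 with DEN. The knockout signals were 81.0, 78.7 and 83.9, then 63.7, 57.5 and 98.8, then 82.9, 105 and 83.5. Here too knockout lay above wild type at 4 weeks (0.58, a description). It also did so with DEN (0.57, SE 0.18, limma adjusted p = 0.364), while with saline the groups overlapped (-0.02). Rbpj 1448957_at was the only 1 of the 15 member probe sets whose genotypes did not overlap with DEN, against 10.8% of all tested. The dimmest Rbpj probe set, 1418114_at, read 5.81 to 54.1 with a median of 32.1 and had the opposite sign with DEN (-0.56, SE 0.33, limma adjusted p = 0.658). At 4 weeks its mean signal was 23.6 in wild type and 34.7 in knockout, with overlap.

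Among the receptors, Notch1, which is expressed in liver endothelium and other cells, read 179, 227 and 193 in wild type and 213, 191 and 202 in knockout at 4 weeks (1418634_at). With saline it read 197, 169 and 186 against 215, 207 and 221, and with DEN 194, 122 and 154 against 168, 171 and 163. Knockout lay above wild type with saline only. That difference was 0.21 (SE 0.13, limma adjusted p = 0.986) in this probe set and 0.42 (SE 0.19, limma adjusted p = 0.941) in 1418633_at, where the groups did not overlap either. Under DEN against saline in knockout the values were -0.33 (limma adjusted p = 0.0949) and -0.51 (limma adjusted p = 0.0797), again without overlap and short of the threshold. The 2 probe sets correlated at r = 0.57.

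Notch2, a receptor with a known part in bile duct formation, read 396, 357 and 447 in wild type and 340, 318 and 334 in knockout at 4 weeks (1455556_at). With saline it read 315, 352 and 325 against 272, 284 and 312, and with DEN 370, 351 and 290 against 321, 294 and 420. Knockout lay below wild type at 4 weeks (-0.26, a description) and with saline (-0.18, SE 0.12, limma adjusted p = 0.992), and the genotypes overlapped with DEN (0.02).

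Jag1, the ligand linked to bile duct formation, read 57.1 to 123 over the 18 arrays in its brightest probe set (1434070_at), both extremes coming from wild type with DEN. Its genotype differences were -0.01 at 4 weeks, 0.01 (95% interval -0.38 to 0.41) with saline and -0.01 (95% interval -0.40 to 0.39) with DEN. The 2 dim probe sets read 4.51 to 54.5 (1421105_at) and 0.98 to 32.7 (1421106_at), and their genotypes overlapped in each condition. The lowest difference was that of 1421105_at from saline to DEN in knockout, -0.70 (SE 0.34, limma adjusted p = 0.176, no overlap).

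**Figure D2:**
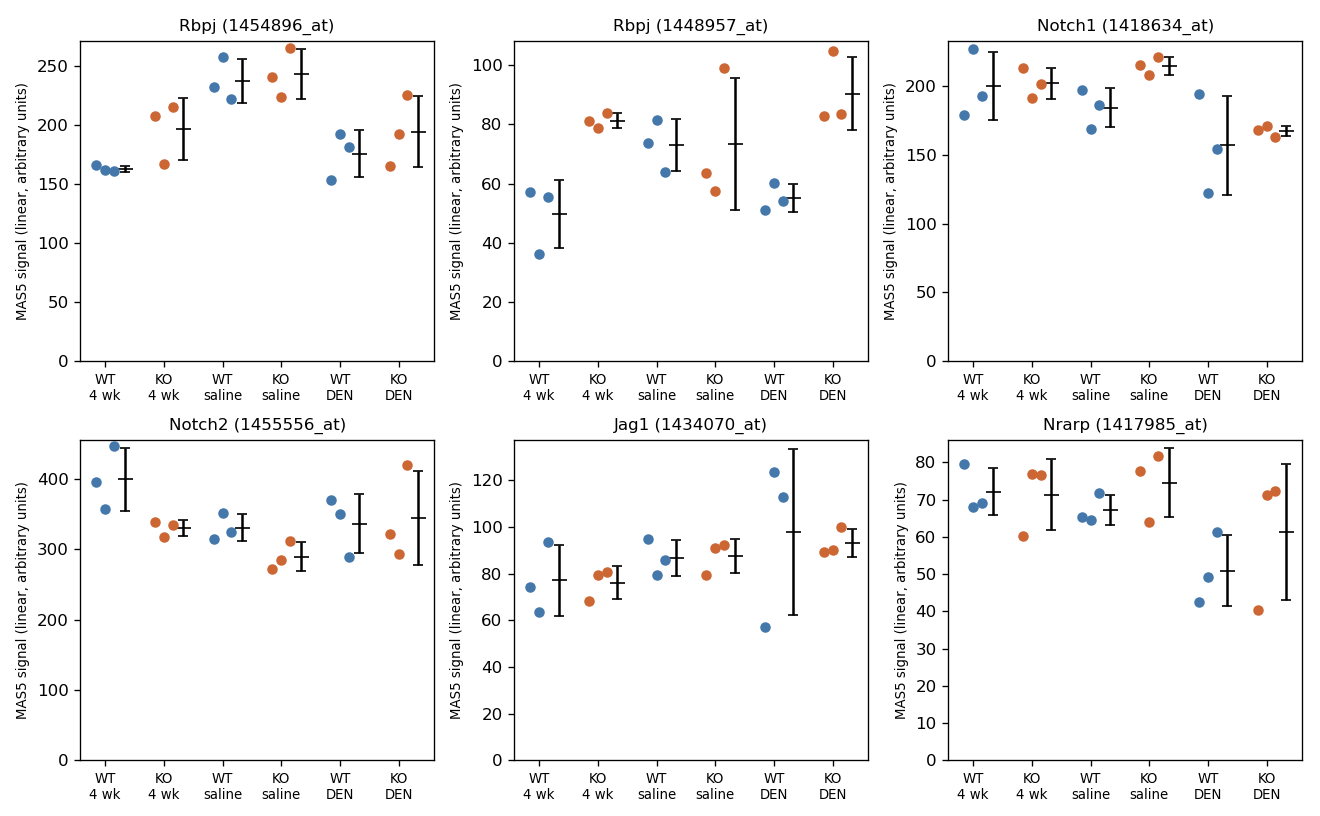
Linear MAS5 signal (vertical axes, arbitrary units, from 0) of 6 probe sets of Rbpj, Notch1, Notch2, Jag1 and Nrarp on each of 18 arrays, by group (horizontal axes); blue points are wild type, orange points knockout, and bars show the mean ± SD of 3 arrays. The genotypes overlap in each condition for Jag1 and Nrarp, and the saline arrays of Rbpj 1454896_at (222 to 266) lie above most others.

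Counted over groups, 6 of the 15 member probe sets had genotypes that did not overlap with saline, Hes1 and both of Notch1 higher in knockout and both of Hes6 and Notch2 lower, against 17.7% of all probe sets tested. At 4 weeks, taken to be the comparison behind the choice of Hes1, 5 of 15 did not overlap, against 19.5%. Between DEN and saline it was 4 of 15 in wild type (25.8% of all) and 6 of 15 in knockout (33.9% of all). Knockout and wild type at 4 weeks differed in 2.26% of all probe sets tested after adjustment.

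**Figure D3:**
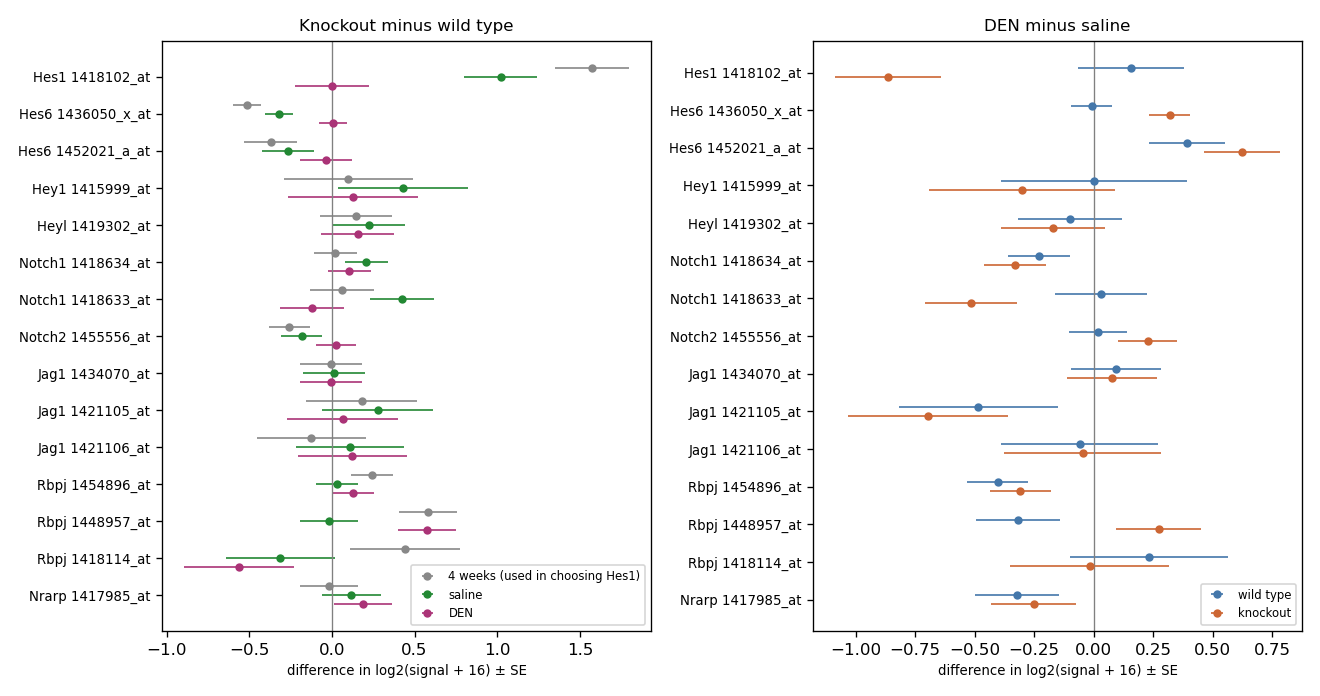
Difference in log2(signal + 16) ± SE (horizontal axes) for the 15 member probe sets that passed the filter (vertical axes), between genotypes in 3 conditions (left) and between DEN and saline in each genotype (right). Hes1 stands at 1.57 at 4 weeks, 1.02 with saline and -0.00 with DEN on the left, and at -0.86 in knockout on the right.

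The rest of the pathway was read from a list of 67 further genes, of which 63 are on the array and 54 passed the filter, each by its brightest tested probe set. Between genotypes at 4 weeks 2 rose and 1 fell, in a comparison where 2.26% of all probe sets tested were called. Bhlhe40, a transcription factor related to the Hes family, rose by 0.83 (SE 0.18, limma adjusted p = 0.0133), from a mean signal of 400 ± 28.6 (SD, n = 3) to 726 ± 33.7. Maml1, the coactivator that joins Notch and Rbpj on DNA, rose by 0.66 (SE 0.16, limma adjusted p = 0.0284), and Psen2, a catalytic subunit of the gamma-secretase that cuts the receptor, fell by 0.50 (SE 0.11, limma adjusted p = 0.0171). Other probe sets did not follow them, at -0.12 and 0.16 for Maml1 and 0.54 for Psen2, none of which was called. The call of Bhlhe40 was lost without wild-type replicate 3 or knockout replicate 1 or 2 (adjusted p up to 0.0708), or without the intensity trend (limma adjusted p = 0.0689). That of Psen2 held only without wild-type replicate 2 and that of Maml1 only without wild-type replicate 1. The median of the 54 was 0.08, against 0.02 over all probe sets tested.

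Between genotypes at 12 weeks limma called 0 of the 54, both with saline and with DEN. At an unadjusted p under 0.05 there were 7 of 54 with saline, against 5.28% of all probe sets tested, and 2 with DEN, against 8.97%. With saline 39 of the 54 had positive values, with a median of 0.10 against 0.04 over all probe sets. With DEN 33 were positive, with a median of 0.03 against -0.02. The 4 ligands tested had a median of 0.43 with saline and -0.05 with DEN, and the 4 targets and relatives 0.16 and -0.25, with 0 called in each. Maml1 with saline had mean signals of 248 ± 33.9 in wild type and 320 ± 38.5 in knockout, and Psen2 3988 ± 271 and 3254 ± 141.

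From saline to DEN, Adam10, the protease that makes the first activating cut in Notch, fell in both genotypes, by 0.53 in wild type (SE 0.09, limma adjusted p = 0.000928) and by 0.52 in knockout (SE 0.09, limma adjusted p = 0.000527). Its mean signal went from 828 ± 50.0 to 569 ± 38.3 in wild type and from 902 ± 93.4 to 621 ± 26.6 in knockout. Tle5, a short relative of the Groucho corepressors that Hes proteins recruit, rose in both, by 0.48 (limma adjusted p = 0.00483) and by 0.45 (limma adjusted p = 0.00393). These 4 calls held with quantile values and without each array in turn, but that of Tle5 in knockout was lost with the Gapdh ratio as a covariate (0.35, limma adjusted p = 0.0764). The second Adam10 probe set was at -0.08 in both genotypes, not called. In both genes the saline arrays, which stand apart, also differed from the 4-week arrays, Adam10 by 0.32 and 0.41 and Tle5 by -0.37 and -0.64 in wild type and knockout, all 4 called (8.26% and 9.94% of all probe sets were). In wild type both were lost in 4 of the 6 fits that left out an array, without 4-week replicates 1 or 3 or saline replicate 1 for both, saline replicate 2 for Adam10 and saline replicate 3 for Tle5 (adjusted p up to 0.154 and 0.103). Adam10 was also lost with quantile values in wild type (limma adjusted p = 0.0904) and without saline replicate 1 in knockout (limma adjusted p = 0.0571). With quantile values Adam10 held in knockout (limma adjusted p = 0.00805), and Tle5 held in wild type (0.0152) and knockout (0.000303).

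In wild type 1 of the 54 rose and 3 fell, a share near the 6.54% of all probe sets called. The 3 were Adam10, Dtx4 and Pofut1. Dtx4, a ubiquitin ligase of the Deltex family, differed by -0.62 (limma adjusted p = 0.0132, with quantile values 0.0367). Pofut1, the enzyme that adds the first sugar to Notch, differed by -0.61 (limma adjusted p = 0.0297, with quantile values 0.0700). Each of these last 2 calls was lost in 4 of the 6 fits that left out an array, those without DEN replicates 2 or 3 for both, and without saline replicates 1 or 2 for Dtx4 and 2 or 3 for Pofut1 (adjusted p up to 0.0802 and 0.163). The second probe sets gave -0.33 for Dtx4 and 0.12 for Pofut1, neither called.

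In knockout 2 of the 54 rose and 6 fell, a share near the 15.1% of all probe sets called. With the Gapdh ratio as a covariate 2 were called, and of these 8 genes only Adam10 was among them (limma adjusted p = 0.0223). Besides Adam10, the falls were Maml1 (-0.60, limma adjusted p = 0.0121), the ligand Dll1 (-0.63, 0.0166), Mib1, a ubiquitin ligase that activates ligands by endocytosis (-0.43, 0.0178), Furin, the protease that matures the receptor (-0.46, 0.0253), and Kdm5a, a histone demethylase found in Rbpj corepressor complexes (-0.35, 0.0464). Besides Tle5, Psen2 rose by 0.34 (limma adjusted p = 0.0419), a value that was 0.08 (limma adjusted p = 0.651) with quantile values. Dll1 and Kdm5a also missed the threshold with quantile values, at limma adjusted p = 0.0606 and 0.151. Maml1, Mib1 and Furin passed with quantile values, at limma adjusted p = 0.0289, 0.0291 and 0.0476. With the Gapdh ratio as a covariate Maml1 (limma adjusted p = 0.0880), Mib1 (0.0568) and Dll1 (0.394) were lost. So were Furin (limma adjusted p = 0.330), Kdm5a (0.359) and Psen2 (0.376). The direct test between genotypes called 0 of the 54 with limma (4 at an unadjusted p under 0.05, against 8.03% of all probe sets), so that no gene of the list was shown to respond differently. The median of the 54 was -0.13 in knockout, against -0.09 over all probe sets, and -0.05 in wild type, against -0.02.

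Of the knockout calls from saline to DEN, Dll1 was lost without saline replicate 1, Maml1 without DEN replicate 2 or saline replicate 1, and Mib1 without these or saline replicate 3. Furin was lost without DEN replicate 2 or any saline replicate, Kdm5a held only without DEN replicate 2, and Psen2 only without DEN replicate 3. Other probe sets of Mib1 gave -1.11 (called) and -0.23, and 2 of the 4 others of Kdm5a were called too, at -1.17 and -0.60. Those of Maml1 and Psen2, which did not follow at 4 weeks, are not given here, so these calls rest on 1 probe set each.

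**Figure D4:**
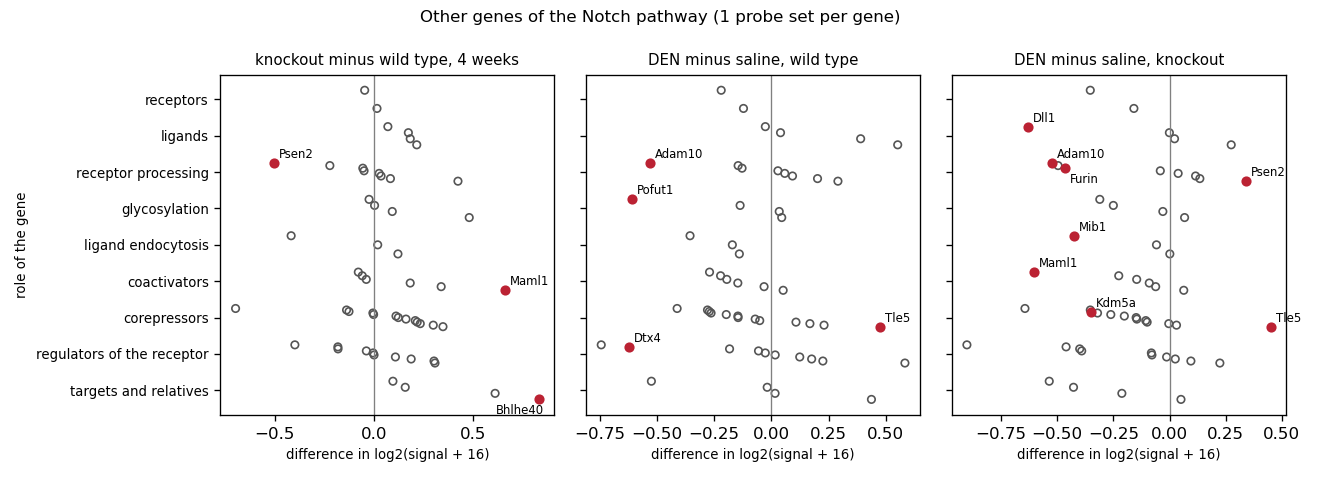
Difference in log2(signal + 16) (horizontal axes) of 54 further Notch pathway genes, 1 probe set each, by role (vertical axis), in 3 comparisons; filled red points passed an adjusted p of 0.05 in limma and open points did not. Adam10 (-0.53 and -0.52) and Tle5 (0.48 and 0.45) are filled in both DEN panels, and Maml1 changes side between the left panel (0.66) and the right (-0.60).

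Against the 4-week arrays, DEN livers had 1 higher and 5 lower among the 54 in wild type (4.4% of all probe sets called), and 0 higher and 6 lower in knockout (8.24% of all). With the Gapdh ratio as a covariate 1 and 0 of the 54 were called, and 240 and 8 probe sets in all, against 1190 and 2226 without it. Bhlhe40 rose in wild type by 0.96 (SE 0.18, limma adjusted p = 0.00387), to a mean of 803 ± 143. Tle1, a Groucho corepressor, fell in both genotypes, by 0.62 (limma adjusted p = 0.0100) and 0.69 (limma adjusted p = 0.00334), as did Numb, an inhibitor of the receptor, by 0.42 (limma adjusted p = 0.0182) and 0.38 (limma adjusted p = 0.0194). With the Gapdh ratio as a covariate these 4 calls were lost, at limma adjusted p = 0.139 and 0.351 for Tle1 and 0.180 and 0.559 for Numb, whose knockout value was then -0.22. In wild type both genes were also lost without 4-week replicate 2 or DEN replicate 2 (adjusted p up to 0.0571 and 0.0799), and Numb in knockout without 4-week replicates 1 or 3 or DEN replicate 2 (up to 0.104). Numb was also lower with saline than at 4 weeks. It differed by -0.36 in wild type (limma adjusted p = 0.0215, with quantile values 0.0159). In knockout this was -0.40 (limma adjusted p = 0.00911, with quantile values 0.00871). The wild-type call was lost in 4 of the 6 fits that left out an array (limma adjusted p up to 0.0966). Mean Numb signal in wild type and knockout was 580 and 563 with saline and 557 and 575 with DEN. Sox9, a marker of bile duct cells and a Notch target there, fell in knockout by 0.92 (SE 0.23, limma adjusted p = 0.0188), from 70.7 ± 14.5 at 4 weeks to 29.5 ± 6.0. This call was lost without 4-week replicates 1 or 3 or DEN replicate 1 (adjusted p up to 0.0886) and with the Gapdh ratio as a covariate (-1.19, limma adjusted p = 0.193). In wild type Sox9 was 42.5 ± 20.2 at 4 weeks and 37.0 ± 3.57 with DEN. The corepressor Ctbp1 and the coactivator Crebbp also fell in knockout, by 0.46 (limma adjusted p = 0.00498) and 0.43 (limma adjusted p = 0.0115). Ctbp1 held without each array in turn, and Crebbp was lost in 1 of these 6 fits (limma adjusted p = 0.0501). With the Gapdh ratio as a covariate both were lost (limma adjusted p = 0.452 and 0.0710).

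Markers of other liver cells were read beside these results. For bile duct cells, where Hes1 and Sox9 are known Notch targets, only 2 of the 6 markers found on the array passed the filter, and Krt19, Krt7, Cftr and Sctr did not. The summed signal of the 2 was 66.7 to 84.3 in wild type and 92.9 to 110 in knockout at 4 weeks, 50.0 to 76.5 and 62.8 to 115 with saline, and 78.4 to 81.1 and 49.2 to 79.4 with DEN. It was thus higher in knockout, without overlap, at 4 weeks, but the 2 markers did not move together. Sox9, itself a gene of the pathway list, had means of 42.5 in wild type and 70.7 in knockout. Those of Epcam were 30.8 and 28.8. Of the 2, 0 were called between genotypes in any condition. The part of this sum in the Hes1 difference was not tested.

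For endothelial cells, in which Notch1 and Hes1 are expressed, 0 of 17 markers were called between genotypes in any condition. Their summed signal was 4137 to 4308 in wild type and 3857 to 4027 in knockout at 4 weeks, where 5 of the 17 had positive differences. The sums overlapped with saline (3951 to 4141 against 3805 to 4021) and with DEN (3862 to 4052 against 3872 to 4329.5). For macrophages, 3 of 9 markers were lower in knockout at 4 weeks, with sums of 6292 to 6786 against 4120 to 4559, and 0 of 9 with saline (5836 to 6854 against 5061 to 5602) and with DEN, where the sums overlapped. Stellate and smooth muscle markers were lower in 2 of 11 at 4 weeks and in 0 at 12 weeks. The part of these marker shifts in the Hes1 and Hes6 values was not tested.

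From saline to DEN in knockout, 6.42% of all probe sets tested were called higher and 8.65% lower. Of the markers, 5 of 6 for hepatocytes and 3 of 9 for macrophages rose. So did 1 of 17 endothelial and 1 of 11 stellate and smooth muscle markers, and 1 endothelial marker fell. In wild type, where 6.54% of all probe sets were called, 5 of 6 hepatocyte markers rose too, and 0 of 9 macrophage markers passed. Hes1 was thus lower and Hes6 higher on knockout arrays on which the hepatocyte sum was larger, 155841 to 162285 with DEN against 75252 to 77149 with saline; in wild type the sum also differed (146807 to 168524 against 67073 to 85315), with Hes1 at 0.16 and Hes6 at -0.01 and 0.39. Against 4 weeks, hepatocyte markers were lower with saline in 5 of 6 in wild type and in 6 of 6 in knockout. With DEN 0 of 6 were higher than at 4 weeks in either genotype, and 1 was lower in knockout. The part of the hepatocyte sum in the Hes1 and Hes6 values was not tested.

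The genes whose profile was most like that of Hes1 over the 18 arrays were found among 12895 genes, each read by its brightest tested probe set, as a description. Pearson's r was 0.94 for Id1, an inhibitor of DNA binding that BMP signalling is known to induce, 0.88 for Skil, a negative regulator of TGF-beta signalling, and 0.82 for Ier2, an immediate early gene. The other 7 of the first 10 were 1700017B05Rik, Shld2, Zfp131, Ankib1, Yrdc, Txlna and Hgh1, at 0.83 to 0.87. The median over all genes was 0.03. Within conditions, after each condition's mean was taken off, 4 of these 10 were again among the first 10, Id1 at 0.95.

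Id1 read 163, 95.1 and 133 in wild type and 842, 787 and 729 in knockout at 4 weeks. With saline it read 256, 166 and 202 against 731, 521 and 617, and with DEN 250, 225 and 259 against 305, 370 and 195. As with Hes1, the 6 knockout arrays without DEN were the highest of the 18 and the genotypes overlapped with DEN. Its knockout value was higher by 2.48 at 4 weeks, by 1.52 after saline and by 0.19 after DEN.

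The lowest correlations were those of Cdk5rap1 (-0.86), the macrophage receptor Csf1r (-0.85), Hfe (-0.85), Psmb9 (-0.84) and Hes6 itself (-0.84). Csf1r had mean signals of 2202 in wild type and 1520 in knockout at 4 weeks, 2003 and 1670 with saline, and 2063 and 2060 with DEN. Among the other members r with Hes1 ran from -0.44 (Notch2, and Hes6 1452021_a_at) to 0.48 (Rbpj 1448957_at), with 0.33 for Hey1, 0.11 for Heyl, 0.23 for Nrarp and 0.30 and 0.42 for Notch1. All these values share the same 18 arrays and their group structure.

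**Figure D5:**
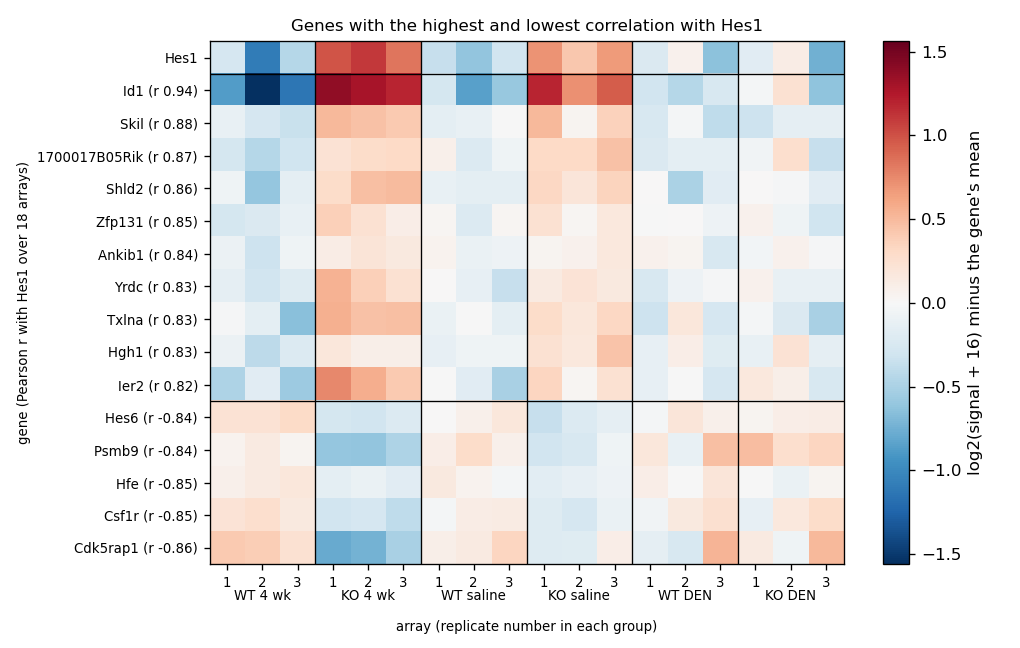
log2(signal + 16) minus the gene's mean over 18 arrays (colour, red above and blue below) for Hes1, the 10 genes with the highest and the 5 with the lowest Pearson r with it (vertical axis), on each array by group (horizontal axis). The 6 knockout arrays without DEN are red for Hes1 and Id1 (r = 0.94) and blue for Hes6 (r = -0.84).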

How the data were processed

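Liver RNA was hybridised to Affymetrix Mouse430_2 arrays. The deposited intensity values, on a linear scale, were made with MAS5 per the submitters' processing notes (version not given in the sources used here), and without the lowest and highest 2% their mean was 150 on each array. Arrays give no depth, and their number limits the precision. Genes were named from the platform annotation. After leaving out 64 control probe sets, 16 was added and log2 taken, and 27022 probe sets passed the filter. Groups came from the sample titles. Two-sided tests used limma 3.58.1 in R 4.3.3 (lmFit, eBayes with intensity trend, all 18 arrays, 12 residual degrees of freedom, prior 9.19), with Benjamini-Hochberg adjustment over all tested probe sets and a threshold of 0.05; in data simulated for the genotypes with saline, on the 27022 probe sets, 64 of 95 changes of 1 and 97 of 105 of 2 on the log2 scale were called, as were 10 of 26822 unchanged probe sets. The simulated data held all these changed probe sets at once, which makes the adjusted threshold easier to pass. The measured comparison of genotypes with saline called 3 probe sets. The simulated shares therefore do not say how many real changes of these sizes that comparison would call. "Rose" and "fell" mark calls only. The members, the pathway and marker lists and the tests were chosen with earlier results of these data known. Genes named are the members, called list genes, and the 10 most and 5 least correlated with Hes1. Not every call of a list gene is described. From 4 weeks to saline, Hdac1 was also called in wild type (0.43, limma adjusted p = 0.0182) and Kat2b in knockout (-0.34, limma adjusted p = 0.0191). Neither was called with quantile values (limma adjusted p = 0.0664 and 0.0815). Alternatives were other normalizations, values added, filters, fits and leaving out arrays. Same-numbered arrays did not deviate together (r of -0.098 to 0.116 over 45 pairs), so no pairing was used.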

Additional observations from a re-analysis of the deposited data

How the results depend on the processing

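Leaving out each array in turn gave, for Hes1, -1.05 to -0.62 from saline to DEN in knockout (1 to 3 member probe sets called), -0.0081 to 0.34 in wild type, -0.19 to 0.24 between genotypes with DEN and -0.074 to 0.34 from 4 weeks to saline in wild type. The difference of Hes1 between genotypes with saline passed when only the compared groups were fitted (1.02, 1 member called) and with array quality weights (1.04, 2 called). With 64 added it was 1.10 at 4 weeks and -0.90 from 4 weeks to DEN in knockout, as adding more to a signal shrinks its log2 differences, and with the Gapdh ratio as a covariate the latter was -1.66 and 1 member was called from saline to DEN in knockout. In wild type 1 member was called from saline to DEN with array medians set equal, a filter at the 60th percentile or array weights. Of the 10 genes most like Hes1, 4 were shared within conditions. Whole-array counts ranged from 255 to 1000 (611 in the report's fit) between genotypes at 4 weeks, from 229 to 1384 (1190) from 4 weeks to DEN in wild type and from 8 to 2496 (2226) in knockout, where the Gapdh covariate gave the 8. Among the 54 pathway genes 0 to 5 (3) were called between genotypes at 4 weeks. From 4 weeks to DEN it was 1 to 6 (6) in wild type and 0 to 7 (6) in knockout. The causes of these shifts were not tested.

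All reversed signs were at values without a call. Between genotypes with DEN, Hes1 was 0.043 (quantile), 0.057 (medians), 0.035 (cyclic loess) and 0.0030 (64 added). Hes6 1436050_x_at was -0.00095 (quantile), -0.0024 (cyclic loess), -0.0059 (Gapdh) and, leaving out an array, -0.050 to 0.064. Hes6 1452021_a_at was 0.023 (medians) and -0.10 to 0.00048, Notch1 1418634_at -0.043 to 0.26 and 1418633_at -0.25 to 0.069. Between genotypes with saline, Rbpj 1454896_at was -0.094 (medians) and -0.027 to 0.090, and 1448957_at 0.0070 (Gapdh) and -0.21 to 0.11. Under DEN against saline in wild type, Hes6 1436050_x_at was 0.042 (quantile), 0.034 (cyclic loess) and -0.065 to 0.049, and Notch1 1418633_at -0.045 (medians), -0.0065 (Gapdh) and -0.16 to 0.19. In knockout, Rbpj 1418114_at was 0.098 (quantile), 0.091 (medians), 0.16 (cyclic loess), 0.0025 (64 added), 0.030 (array weights) and -0.35 to 0.30. In the difference of responses, Notch1 1418634_at was 0.083 (medians) and -0.25 to 0.048, Rbpj 1454896_at -0.0093 to 0.20 and 1418114_at -0.58 to 0.073.

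The replicate numbers share no known source. With the replicate number as a block, Hes1 was -0.86 from saline to DEN in knockout (adjusted p 0.0132) and 1.02 between genotypes with saline (adjusted p 0.267), and no call of a member changed; among the pathway genes, the calls of Kdm5a from saline to DEN in knockout (adjusted p 0.0568) and of Pofut1 from 4 weeks to DEN in wild type (adjusted p 0.0548) were lost.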
